A study of Saccharomyces cerevisiae with 6 samples.

Results

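The transcripts of 36 genes were examined in *Saccharomyces cerevisiae* WT and *ths1-C268A* cells: the 33 genes for the subunits of the proteasome, *UMP1* for an assembly chaperone, *BLM10* for an activator, and *RPN4* for the transcription factor that drives this set. They were chosen by gene name from a table of 7122 genes. All 36 were found there, and all 36 were among the 6447 genes that passed the filter on low values, which removed genes with a mean under 1 FPKM. FPKM is fragments scaled by coding length and by the depth of the sample. It compares samples only as far as that depth is alike in make-up, and the share of fragments not counted in genes differed between the strains.

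BY4741, the laboratory strain from which WT and the mutant were made, lacks *HIS3*, *LEU2*, *MET17* and *URA3*. In *ths1-C268A* a Cys of ThrRS, the enzyme that joins Thr to its tRNA, is replaced by Ala, and the enzyme no longer removes Ser attached to that tRNA by mistake. Log-phase cells of both strains, grown in the rich medium YPD at 30 °C, were held at 37 °C for 2 h, and 3 samples of each strain (replicates A, B and C) were sequenced. Every sample was therefore taken after the shift, and the response to the shift itself cannot be seen here. The mutant ThrRS is also described as less stable at the higher temperature, so loss of editing and loss of ThrRS cannot be told apart in these samples. The study describes its stability as unaffected at 30 °C and used other assays there, but no sample here was taken at 30 °C. The study calls the samples of a strain biological replicates. The labels do not say whether they were separate cultures, so the p-values measure the spread between these samples. In bulk RNA, fewer cells with a transcript and less of it per cell cannot be told apart.

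The samples held 16597937 to 17761143 fragments in genes for WT and 17806318 to 19114041 for *ths1-C268A*. Of the fragments behind the FPKM scale, 18.3% to 18.7% were not counted in the listed genes in WT and 10.6% to 13.4% in the mutant. That total was inferred from the smallest value of FPKM times length, and where the uncounted fragments lay is not known. When the protein-coding genes were scaled to the same total in each sample (equal total scaling), the median log2 fold change over all genes moved from -0.0025 to -0.12. *LEU2*, *MET17* and *URA3* were at 0 in all 6 samples, and *HIS3*, of which the deletion leaves a part, was 86.4 to 106 FPKM in WT and 197 to 271 FPKM in the mutant. The mutation changes a codon of *THS1* and leaves its transcript in place, so its level does not check the labels. It was 180, 172 and 153 FPKM in WT, 217, 287 and 226 FPKM in the mutant, and its log2 fold change was 0.52 (SE 0.12, adjusted p = 0.0183 from limma).

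The proteasome is the protease that degrades proteins tagged with ubiquitin. Its barrel-shaped core particle is built of stacked alpha and beta rings and holds the proteolytic sites inside, and its regulatory particle, made of a base with ATPases and a lid, recognises, unfolds and feeds in the substrates. In yeast, Rpn4 activates nearly all of the subunit genes through a short promoter element, PACE. Rpn4 is itself degraded by the proteasome, so that the supply of proteasomes is tied to the demand for them.

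The element was looked for because it joins the subunit genes to *RPN4*. GGTGGCAAA was searched on both strands from 250 bases before to 50 bases after the start codon in the RefSeq genome, build R64. It was present in 27 of the 36 genes (75%), against 76 of 6687 promoters of all genes (1.14%). Each of the 27 held 1 match, 19 on the strand of the gene and 8 on the other, and the matches lay 84 to 183 bases before the start codon with a median of 120. The shorter GTGGCAAA, which is part of the longer motif, was found in 30 genes (83.3%), against 151 promoters of all genes (2.26%). *PRE5*, *PUP1* and *RPN8* held the shorter form alone, and *RPN10*, *RPN13*, *SEM1*, *UMP1*, *BLM10* and *RPN4* held neither. No match of the 30 lay within an annotated gene. Windows of 30 bases are shown for the subunit genes whose transcript changed, and for *PUP1* as a further gene with the shorter form. They are written 5′ to 3′ on the strand of the gene, with the motif in capitals.
PRE1, chrV:177683-177712, + strand: aaatctttacGGTGGCAAAaaataaagaaa
PRE2, chrXVI:732184-732213, + strand: acagcaaaagGGTGGCAAAacgaagaatag
RPN12, chrVI:252398-252427, + strand, motif on the other strand: ctacacattaTTTGCCACCcattgaaattg
RPN8, chrXV:817084-817113, - strand: gggatacctcaGTGGCAAAtcgttactcaa
PUP1, chrXV:631890-631919, - strand: aacccggccgaGTGGCAAAataccaaaaag

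The 36 genes moved little between the strains. Of the 36, 7 passed the test (19.4%), against 26.4% of all genes tested, by limma on log2(FPKM + 1) with Benjamini-Hochberg adjustment over the 6447 genes and a threshold of 0.05. The 5 that rose (13.9%, against 14.2% of all genes) were *RPN4*, *PRE1*, *RPN8*, *RPN12* and *BLM10*, and the 2 that fell (5.56%, against 12.1%) were *PRE2* and *UMP1*. With equal total scaling 28.1% of all genes passed, and of the 36 none rose (against 8.13%) and 6 fell (against 19.9%), which were *PRE2*, *UMP1*, *PRE3*, *PUP1*, *PUP2* and *SEM1*. *SCL1*, *PRE6*, *RPT3* and *RPN2*, none of which passed, had a positive value as deposited and a negative one with equal total scaling. The log2 fold changes of the 36 ran from -0.34 to 0.44 with a median of 0.094, and none reached 0.5 in either direction, which 18.6% of all genes did. The median size of the change, whatever its sign, was 0.16 for the 36 and 0.23 for all genes. The samples of the strains did not overlap in 21 of the 36 (58.3%), 14 with the mutant above and 7 with the mutant below, against 45.6% of all genes (24.5% above and 21.1% below). The SE of these values was 0.074 to 0.16, and the widest 95% interval among the 36 reached from -0.57 to 0.14 for *PRE5*, while the highest upper bound was 0.71, for *PRE1*.

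**Figure D1:**
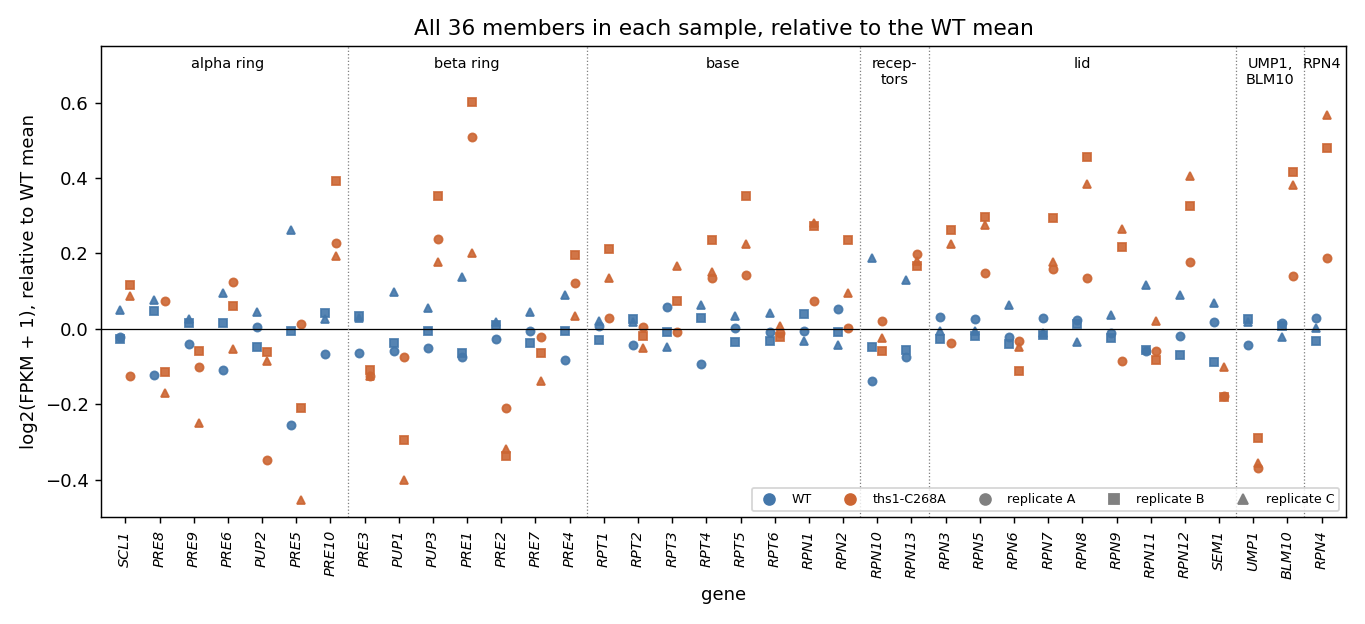
Each of the 36 genes is placed along the x axis by complex, and the y axis gives log2(FPKM + 1) of each sample relative to the mean of the 3 WT samples, with WT in blue, *ths1-C268A* in orange, and circles, squares and triangles for replicates A, B and C. The points of *RPN4* and the lid lie mostly above 0 in mutant replicates B and C, those of *UMP1* and *PRE2* lie below 0 in all 3 mutant samples, and replicate A of the mutant is often the one nearest to WT.

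*RPN4* (YDL020C, chrIV:415113-416708, - strand) was the most abundant of the 36 transcripts in both strains. Replicates A, B and C were at 282, 270 and 276 FPKM in WT and at 314, 385 and 409 FPKM in the mutant. All mutant samples were above all WT samples, and the spread was wider in the mutant, 369.5 ± 49.2 FPKM (SD, n = 3) against 276.0 ± 5.87 FPKM (SD, n = 3). The rise was 1.34-fold, with a log2 fold change of 0.41 (SE 0.11, 95% interval 0.16 to 0.66, adjusted p = 0.0280 from limma). With equal total scaling it was 0.29 (adjusted p = 0.0629). The call was also lost without any 1 WT sample (adjusted p = 0.0757, 0.108 and 0.0811 without A, B and C) and without mutant replicate B (0.0733) or C (0.0632), and held without mutant replicate A (0.00608).

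The promoter of *RPN4* is known to answer to Yap1, the factor of the oxidative stress response, to Pdr1 and Pdr3, the factors of multidrug resistance, and to Hsf1, the heat shock factor. In the 500 bases before its start codon, TCCACGGA, a form of the Pdr1 and Pdr3 element, was found at 442 and 399 bases, and it was present in 0.973% of all promoters of that length. TTAGTAA, a Yap1 element, lay 374 bases before the start codon and was present in 11.3% of promoters. GAANNTTC, an inverted pair of heat shock units, lay at 343 and 16 bases and was present in 19.2%. The other Pdr1 and Pdr3 form searched, TCCGCGGA, had no match in this window and was in 0.599% of promoters. The windows upstream of *RPN4* are shown because they hold the elements of these factors, in the order in which they approach the gene, with the motif in capitals. None overlaps an annotated gene.
Pdr1/Pdr3 element, chrIV:417132-417161, - strand, motif on the other strand: taataacaagtTCCGTGGAactcaaagaaa
Pdr1/Pdr3 element, chrIV:417089-417118, - strand: gtacgaaccttTCCACGGAtaatcacgtga
Yap1 element, chrIV:417064-417093, - strand, motif on the other strand: cgtgatcgctaTTACTAAtagccgtttaca
heat shock pair, chrIV:417033-417062, - strand: tgatggttctaGAAAGTTCcgtttcggcga

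Of the 4 genes for these factors, *YAP1* rose and *HSF1*, *PDR1* and *PDR3* did not pass, with a median log2 fold change of 0.20. Of all genes tested, 14.2% rose. *YAP1* was 124, 121 and 119 FPKM in WT and 139, 152 and 153 FPKM in the mutant, and its log2 fold change was 0.28 (SE 0.077, adjusted p = 0.0313 from limma). The strains did not overlap for *YAP1*, but its call was lost with an equal total (0.16) and after a loess correction for coding length and GC content (0.18). It was also lost without any 1 of 5 samples, the exception being mutant replicate A (adjusted p = 0.0164 without it, up to 0.127 without the others). With the replicate letters as a block *YAP1* did not pass either (0.0743). *HSF1* was 0.18 (adjusted p = 0.152), *PDR1* 0.22 (0.0989) and *PDR3* 0.11 (0.399) on the log2 scale. On the side of turnover, Rpn4 is marked for degradation by the ubiquitin ligase Ubr2 with Mub1 and the conjugating enzyme Rad6, and of these 3 genes *RAD6* rose. It was 108, 108 and 111 FPKM in WT and 143, 173 and 147 FPKM in the mutant, a log2 fold change of 0.49 (SE 0.092, adjusted p = 0.00796 from limma) that kept its call under all 19 alternatives tried and was 0.65 with the length and GC correction. Rad6 also serves other ligases and histone ubiquitylation. *MUB1* was 0.25 (adjusted p = 0.0680) and *UBR2* 0.12 (0.539) on the log2 scale.

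**Figure D2:**
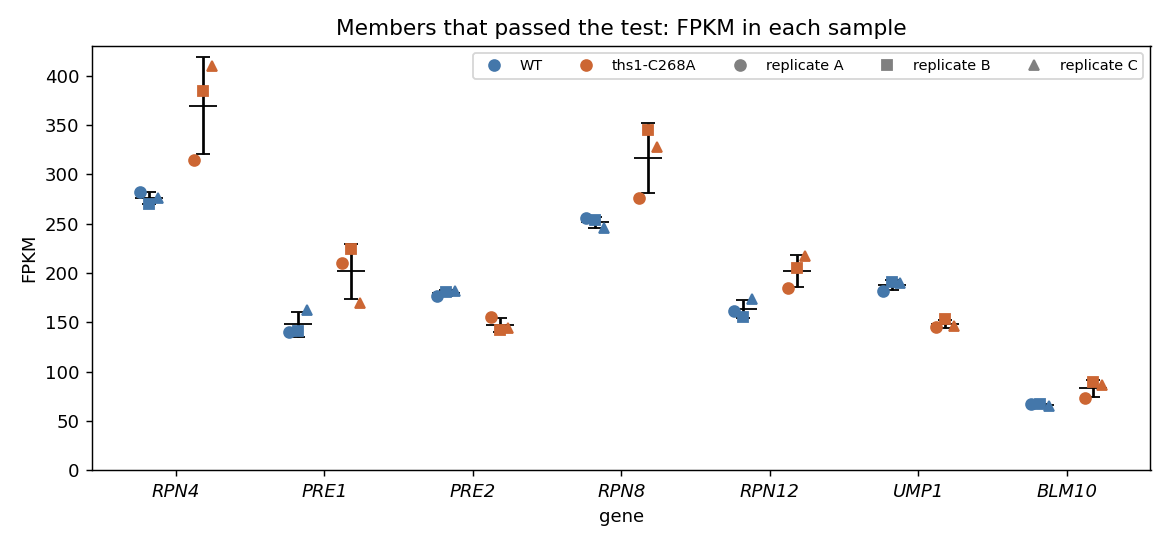
FPKM of the 7 genes that passed the test, on a linear axis from 0, with a point per sample (WT in blue, *ths1-C268A* in orange, shapes for the replicates), and a horizontal line and bar for the mean and SD of 3 samples. In each gene the strains do not overlap, from *RPN4* at 270 to 282 against 314 to 409 FPKM down to *BLM10* at 65.4 to 67.2 against 73.3 to 89.0 FPKM.

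In the core particle, the summed level of the 14 subunits was the same within the spread of the samples, 2840 ± 141 FPKM for WT and 2833 ± 136 FPKM for the mutant (SD, n = 3 each). Of the 14 genes, 1 rose, 1 fell and 12 did not pass, where 14.2% of all genes rose and 12.1% fell. The log2 fold change was positive in 6 of them and negative in 8. The alpha ring forms the gate of the barrel, and none of its 7 genes passed the test (median log2 fold change -0.071). *PRE10*, subunit alpha7, had the highest value, with 205, 221 and 218 FPKM in WT and 251, 282 and 245 FPKM in the mutant. Its strains did not overlap, and the log2 fold change was 0.27 (SE 0.087, adjusted p = 0.0506 from limma). *PRE5*, subunit alpha6, had the lowest, -0.22 (SE 0.16, adjusted p = 0.320), and the widest spread of the 36. It was 194, 231 and 279 FPKM in WT and 234, 201 and 169 FPKM in the mutant, so that each strain covered much of the other's range. *PRE9*, subunit alpha3, the only alpha subunit that yeast can do without, was -0.14 and *PUP2*, subunit alpha5, -0.16, each with all mutant samples below all WT samples and no call. With an equal total *PUP2* was -0.28 and passed (adjusted p = 0.0486 from limma). *SCL1*, *PRE8* and *PRE6*, subunits alpha1, alpha2 and alpha4, were at 0.026, -0.071 and 0.043.

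The beta ring carries the proteolytic sites, and of its 7 genes 1 rose and 1 fell (against 14.2% and 12.1% of all genes). *PRE1*, the non-catalytic subunit beta4 (YER012W, chrV:177835-178431, + strand), was 140, 141 and 162 FPKM in WT and 210, 224 and 170 FPKM in the mutant, where replicate C lay close to the highest WT sample. Its log2 fold change was 0.44 (SE 0.12, adjusted p = 0.0301 from limma), the highest of the 36. The call was lost with an equal total (0.32, adjusted p = 0.0804), without WT replicate A or B (0.0977 and 0.112) and without mutant replicate A or B (0.0567 and 0.0818). *PRE1* also did not pass without the trend of variance (0.0547) or with the replicate letters as a block (0.0578). *PRE2*, subunit beta5 with the chymotrypsin-like site (YPR103W, chrXVI:732349-733212, + strand), was 176, 181 and 182 FPKM in WT and 155, 142 and 144 FPKM in the mutant. These samples were tight within each strain, 179.8 ± 2.91 and 147.0 ± 7.11 FPKM (SD, n = 3), and the log2 fold change was -0.29 (SE 0.076, adjusted p = 0.0266 from limma). With an equal total it was -0.41 (adjusted p = 0.00932) and with the length and GC correction -0.26 (0.0247), whereas the call was lost without WT replicate A, B or C (0.0752, 0.117 and 0.0880) and without mutant replicate B (0.0587). *PRE2* also did not pass with the replicate letters as a block, alone (0.0655) or with that correction (0.0534).

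All 3 beta subunits with a proteolytic site had a negative value and samples that did not overlap between the strains, a grouping made after the values were seen. Of all genes, 21.1% had every mutant sample below every WT sample. *PUP1*, subunit beta2 with the trypsin-like site, was 161, 163 and 179 FPKM in WT and 159, 136 and 127 FPKM in the mutant, a log2 fold change of -0.26 (SE 0.10, adjusted p = 0.0941 from limma). *PRE3*, subunit beta1 with the caspase-like site, was 216, 231 and 230 FPKM in WT and 207, 209 and 207 FPKM in the mutant, a log2 fold change of -0.12 (SE 0.075, adjusted p = 0.260 from limma). *PRE2* alone of the 3 passed. Their median was -0.26, and that of the 4 beta subunits without a site was 0.19, among which *PUP3*, subunit beta3, was 0.26 (adjusted p = 0.0530) and *PRE7* and *PRE4*, subunits beta6 and beta7, were at -0.075 and 0.12. With an equal total all 3 catalytic subunits passed as lower, and the median of all genes moved down at the same time. With the length and GC correction *PRE3* was -0.014 (adjusted p = 0.906) and *PUP1* -0.19 (0.106), and *PRE2* alone passed.

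In the regulatory particle, the summed level of the 19 subunits was 3606 ± 83.1 FPKM for WT and 3916 ± 170 FPKM for the mutant (SD, n = 3 each), a ratio of 1.09. The ratio of this sum to that of the core was 1.32, 1.25 and 1.24 in WT and 1.29, 1.37 and 1.49 in the mutant, so the strains overlapped. Of the 19, 2 rose, none fell and 17 did not pass, where 14.2% of all genes rose and 12.1% fell. The median log2 fold change of the 19 was 0.13. In the mutant, the median level of the 19 relative to WT was 0.022 in replicate A, 0.22 in B and 0.17 in C, on the log2 scale.

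The base holds a ring of 6 ATPases and the scaffolds Rpn1 and Rpn2, and none of its 8 genes passed (median 0.12). *RPT5*, an ATPase, had the highest value, with 173, 168 and 177 FPKM in WT and 190, 220 and 202 FPKM in the mutant, a log2 fold change of 0.24 (SE 0.083, adjusted p = 0.0647 from limma). The lowest was *RPT2*, an ATPase whose tail helps to open the gate of the core, at -0.022 (SE 0.074, adjusted p = 0.844), and its 95% interval from -0.19 to 0.15 bounds how far it could have moved. *RPT6* was at 220 to 232 FPKM in WT and 222 to 226 FPKM in the mutant, and *RPT1*, *RPT3* and *RPT4* had log2 fold changes of 0.13, 0.077 and 0.17. The scaffold *RPN1* had a log2 fold change of 0.21 with the strains apart and no call, and *RPN2* 0.11 (adjusted p = 0.363). The 6 ATPase genes lay close together in level, with an SD of log2 level among them of 0.16 to 0.17 in WT and 0.083 to 0.12 in the mutant samples, where an SD over all genes was 1.79 to 1.95. *RPT1* overlaps YKL145W-A on the same strand by 93 bases, and that gene was listed at 0 in all samples. No other gene of the 36 overlaps a listed gene.

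The lid removes ubiquitin from substrates, and of its 9 genes 2 rose and none fell (median 0.15), where 14.2% of all genes rose and 12.1% fell. *RPN8* (YOR261C, chrXV:815915-816931, - strand), the partner of the deubiquitinase Rpn11, was 255, 254 and 245 FPKM in WT and 276, 345 and 328 FPKM in the mutant. Its log2 fold change was 0.32 (SE 0.10, adjusted p = 0.0450 from limma), the call closest to the threshold among the 7. It was lost with an equal total (0.21, adjusted p = 0.123), with median-ratio scaling (0.32, 0.052), and without any 1 sample except mutant replicate A (0.0103 without it, 0.0956 to 0.135 without the others). *RPN8* also did not pass without the trend of variance (0.0660) or with the replicate letters as a block (0.0691). *RPN12* (YFR052W, chrVI:252505-253329, + strand), a subunit that completes lid assembly, was 161, 156 and 174 FPKM in WT and 185, 205 and 217 FPKM in the mutant. All mutant samples lay above WT, and its log2 fold change was 0.30 (SE 0.090, adjusted p = 0.0400 from limma). The call was lost with an equal total (0.19, adjusted p = 0.127) and without any 1 sample except mutant replicate A (0.0180 without it, 0.0690 to 0.164 without the others). For *RPN12* too, the same 2 changes ended the call (0.0610 without the trend and 0.0591 with the block).

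*RPN5*, a scaffold subunit of the lid, did not overlap between the strains, with 267, 258 and 261 FPKM in WT and 291, 322 and 317 FPKM in the mutant (log2 fold change 0.24, SE 0.081, adjusted p = 0.0590 from limma). *RPN11*, the deubiquitinase itself, was 166 to 187 FPKM in WT and 163 to 175 FPKM in the mutant, a log2 fold change of -0.040 (SE 0.084). *SEM1*, which ties lid subunits together, had the lowest value of the lid, -0.15 (adjusted p = 0.180), and with 1006 to 1263 fragments per sample it was the least deeply counted of the 36. *SEM1* passed as lower with an equal total (-0.27, adjusted p = 0.0351) and changed sign with the length and GC correction (0.049, adjusted p = 0.720). *RPN7*, the least abundant subunit, was 112 to 115 FPKM in WT and 126 to 139 FPKM in the mutant, a log2 fold change of 0.21 (adjusted p = 0.0727). The remaining lid subunits *RPN3*, *RPN9* and *RPN6* had log2 fold changes of 0.15, 0.13 and -0.064 and no call. Of the ubiquitin receptors, *RPN10* was -0.020 (adjusted p = 0.896) and *RPN13* 0.18 (adjusted p = 0.142). *RPN13* was 193, 196 and 223 FPKM in WT and 234, 229 and 231 FPKM in the mutant, which did not overlap.

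*UMP1* (YBR173C, chrII:581726-582172, - strand) encodes a chaperone that sits inside the half-built core particle and becomes the first substrate of the finished one. It was 182, 191 and 190 FPKM in WT and 145, 153 and 146 FPKM in the mutant. Its samples were tight and well apart, and its log2 fold change of -0.34 (SE 0.074, adjusted p = 0.0144 from limma) was the lowest of the 36 and had the smallest p. With the length and GC correction it was -0.15 (adjusted p = 0.250), and without WT replicate B or C the call was lost (0.0819 and 0.0567). *BLM10* (YFL007W, chrVI:123479-129910, + strand), which caps the ends of the core particle in place of the regulatory particle, was 67.2, 66.8 and 65.4 FPKM in WT and 73.3, 89.0 and 86.8 FPKM in the mutant. It was the least abundant of the 36 in both strains, and its log2 fold change was 0.31 (SE 0.093, adjusted p = 0.0399 from limma). With the length and GC correction it was 0.070 (adjusted p = 0.502) with an equal total 0.20 (0.115), and by limma-voom 0.29 (0.0521). Its call was lost without any 1 sample except mutant replicate A (0.00925 without it, 0.0880 to 0.127 without the others). *BLM10* also did not pass without the trend of variance (0.0617) or with the replicate letters as a block (0.0726).

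Gene length moved with these values. Over 6176 protein-coding genes the log2 fold change rose with coding length (Spearman rho 0.37), and over the 36 genes rho was 0.43, where the genes share their libraries and their length differs between complexes. *UMP1* (447 bases) and *SEM1* (270 bases) are short, and *BLM10* (6432 bases) is the longest. The median length was 762 bases in the core particle and 1290 bases in the regulatory particle. Length also separated samples of a single strain, since rho of the level relative to WT with length was 0.56, 0.12 and -0.63 in WT replicates A, B and C. After a loess correction of each sample for length and GC content, rho over the 36 genes was 0.036 and 8 genes rose and 1 fell, where 26.6% of the 6176 genes passed (13.5% higher and 13.1% lower). The 8 were *RPN4*, *PRE1*, *PUP3*, *PRE10*, *RPN5*, *RPN8*, *RPN12* and *RPN13*, and *PRE2* fell. *RPN13* was at 0.34 (adjusted p = 0.0192). *PRE7*, *RPN1*, *RPN2*, *RPN10* and *SEM1*, none of which passed, changed sign. The value of *RPN4* was then 0.36 (adjusted p = 0.0341 from limma) and that of *PRE1* 0.55 (adjusted p = 0.00754). The medians of the core and the regulatory particle became 0.00045 and 0.065.

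**Figure D3:**
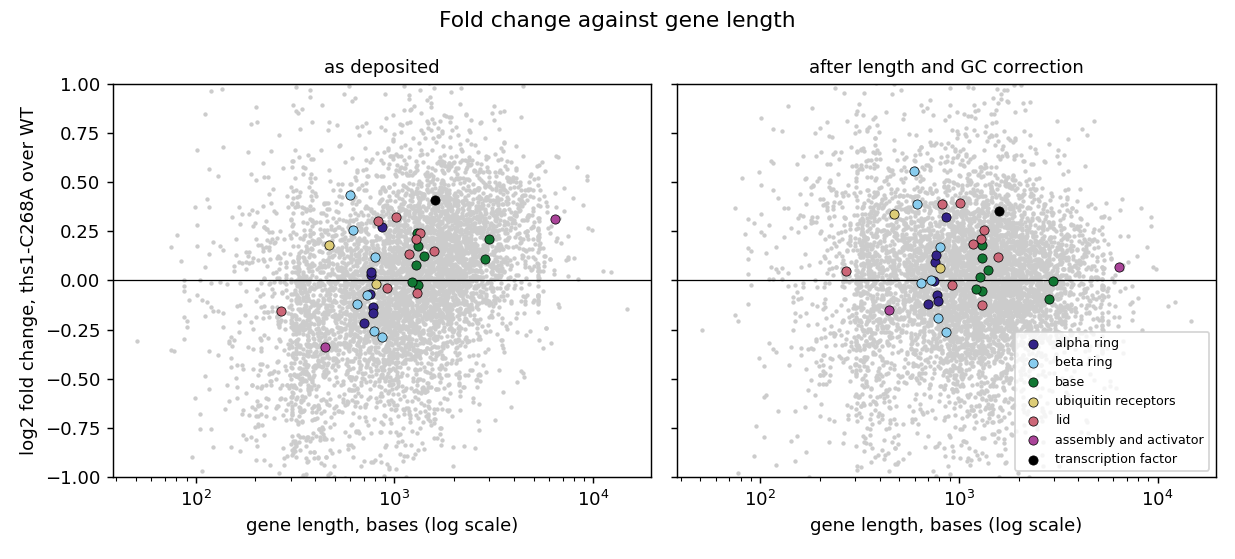
Log2 fold change of *ths1-C268A* over WT against coding length in bases on a log axis, as deposited on the left and after the length and GC correction on the right, with the 36 genes in colour by complex and the other protein-coding genes in grey (those beyond 1 in either direction are not drawn). On the left *UMP1* lies at -0.34 and the longest gene, *BLM10*, at 0.31, and on the right both have moved toward 0, while the short *PRE1* lies high on both sides and *RPN4* is at 0.36 on the right.

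Genes with and without the element covered overlapping ranges of fold change. Of the 27 genes with the full PACE motif, 2 rose and 1 fell, where 14.2% of all genes rose and 12.1% fell. The median log2 fold change of the 27 was 0.11, with a range from -0.29 to 0.44. *PRE1* and *PRE2*, at the ends of that range, both carry GGTGGCAAA on the strand of the gene, 142 and 155 bases before the start codon. The 3 genes with the shorter form alone ran from -0.26 to 0.32, where *RPN8* rose and *PUP1* and *PRE5* did not pass. Of the 6 genes with neither, *RPN4* and *BLM10* rose and *UMP1* fell, with a median of 0.081. Outside the 36, 49 promoters held the full motif, and of the 46 genes tested 10 rose (21.7%, against 14.2% of all genes) and 5 fell (10.9%, against 12.1%), with a median of 0.039. Among them were *CDC48*, *ECM29*, *UBA1*, *UBI4* and *YAP1*, of which *YAP1* alone rose.

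**Figure D4:**
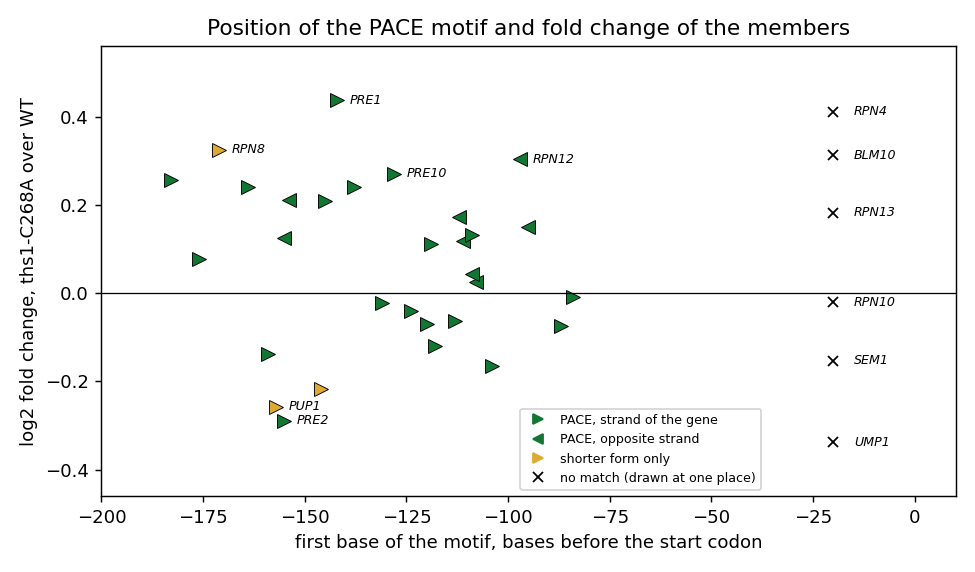
Log2 fold change of *ths1-C268A* over WT for the 36 genes against the position of the motif in bases before the start codon, with triangles for the full PACE motif (pointing right on the strand of the gene and left on the other), yellow for the shorter form alone and crosses at an arbitrary place for the 6 genes with neither. Most genes lie between 84 and 183 bases on both sides of 0, with those farthest from the start codon, such as *PUP3* at 183 bases and *RPN8* at 171 bases, above 0.

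Genes that act around the proteasome were examined in 7 lists. Over these 49 related genes, 8 rose (16.3%, against 14.2% of all genes), 4 fell (8.16%, against 12.1%) and 37 did not pass, a share called near that of all genes (24.5% against 26.4%), with a median log2 fold change of 0.11. Of 9 assembly chaperones, the 2 that fell were *IRC25* and *POC4*, which encode the partners of a dimer that helps to place the alpha subunits. *IRC25* was 49.1, 50.5 and 53.1 FPKM in WT and 39.9, 33.2 and 32.2 FPKM in the mutant, a log2 fold change of -0.53 (SE 0.10, adjusted p = 0.00912 from limma). *POC4* was 66.0, 62.6 and 73.8 FPKM in WT and 53.6, 45.0 and 45.1 FPKM in the mutant, a log2 fold change of -0.49 (SE 0.10, adjusted p = 0.0131 from limma). All mutant samples were below all WT samples in both genes, with a lower level in replicates B and C than in A. *IRC25* kept its call under all 19 alternatives, the length and GC correction included, and *POC4* lost it without WT replicate C (adjusted p = 0.0567) and was -0.32 with that correction (0.0204). The other pair of this kind, *PBA1* and *ADD66*, was at -0.027 and 0.023, and the base chaperones *NAS2*, *NAS6*, *HSM3* and *RPN14* did not pass, the lowest being *RPN14* at -0.22 (adjusted p = 0.135). *TMA17*, a base chaperone that is induced under stress, was the most abundant of the list at 741.7 ± 129 FPKM in WT and 618.8 ± 128 FPKM in the mutant (SD, n = 3), with a log2 fold change of -0.27 (SE 0.17, adjusted p = 0.274 from limma).

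Among 8 proteins that bind the proteasome or ferry substrates to it, *HUL5* and *UBP6* rose and *FUB1* and *RAD23* fell. Of all genes tested, 14.2% rose and 12.1% fell. *HUL5*, a ubiquitin ligase that extends ubiquitin chains on bound substrates, was 25.5, 27.3 and 25.4 FPKM in WT and 36.7, 39.4 and 36.5 FPKM in the mutant, a log2 fold change of 0.51 (SE 0.088, adjusted p = 0.00615 from limma) that kept its call under all 19 alternatives and was 0.33 with the length and GC correction. *UBP6*, the deubiquitinase that works against it, was 125, 129 and 124 FPKM in WT and 148, 160 and 157 FPKM in the mutant, a log2 fold change of 0.30 (SE 0.074, adjusted p = 0.0217 from limma). The call for *UBP6* was lost with an equal total (0.18) and without WT replicate A, B or C (adjusted p = 0.0773, 0.0886 and 0.0777). With the replicate letters as a block *UBP6* did not pass either (0.0550). *FUB1*, an inhibitor-like protein of the core particle, was 68.1, 76.4 and 72.2 FPKM in WT and 54.5, 49.8 and 53.8 FPKM in the mutant, a log2 fold change of -0.45 (SE 0.084, adjusted p = 0.00811 from limma), which was lost without WT replicate B (0.0531). *RAD23*, a shuttle for ubiquitylated substrates, was 169, 186 and 202 FPKM in WT and 159, 142 and 129 FPKM in the mutant, a log2 fold change of -0.38 (SE 0.11, adjusted p = 0.0329 from limma). Its call was lost without any 1 sample except mutant replicate A (0.0157 without it, up to 0.115 without the others). *RAD23* also did not pass without the trend of variance (0.0566) or with the block (0.0695). The other shuttles, *DSK2* and *DDI1*, were at -0.068 and -0.30 (adjusted p = 0.697 and 0.0622).

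Of 5 genes for ubiquitin and its activating enzyme, none passed. *UBA1*, the activating enzyme, had the smallest p, with a log2 fold change of 0.20 (SE 0.090, adjusted p = 0.133 from limma). *UBI4*, the stress-induced polyubiquitin gene, was 887 to 927 FPKM in WT and 916, 1036 and 1153 FPKM in the mutant, a log2 fold change of 0.18 (SE 0.12, adjusted p = 0.270). *RPL40A* and *RPL40B* encode the same protein, so their fragments may be split between them. Of 8 genes for Cdc48, the segregase that pulls ubiquitylated proteins out of complexes and membranes, and its cofactors, *UBX2* rose, against 14.2% of all genes. *UBX2* was 65.2, 63.3 and 67.1 FPKM in WT and 76.9, 77.4 and 75.7 FPKM in the mutant, with a log2 fold change of 0.23 (SE 0.073, adjusted p = 0.0485 from limma). That call was lost with an equal total (0.12, adjusted p = 0.241), with the length and GC correction (0.14, 0.143) and without any 1 sample (0.0564 to 0.200). *UBX2* also did not pass with median-ratio scaling (0.0562), limma-voom (0.0665), no trend (0.0617) or the replicate letters as a block (0.117). *CDC48* was 0.27 (adjusted p = 0.0542) and *NPL4* 0.24 (0.0547), and the strains did not overlap in either.

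Of 12 ubiquitin ligases and conjugating enzymes of protein quality control, *UFD4*, *SSM4* and *UBR1* rose and none fell (median 0.21). Among all genes 14.2% rose and 12.1% fell. *UFD4*, a ligase of the ubiquitin fusion degradation pathway, was 62.6, 60.6 and 59.8 FPKM in WT and 86.6, 102 and 97.0 FPKM in the mutant, with a log2 fold change of 0.63 (SE 0.086, adjusted p = 0.00264 from limma), and it passed under all 19 alternatives. *SSM4*, the Doa10 ligase of the endoplasmic reticulum, was 54.3, 50.4 and 48.7 FPKM in WT and 65.4, 80.3 and 74.2 FPKM in the mutant, with a log2 fold change of 0.51 (SE 0.098, adjusted p = 0.00928 from limma). *UBR1*, the ligase of the N-end rule that also takes misfolded cytosolic proteins, was 38.4, 36.2 and 33.8 FPKM in WT and 41.1, 52.6 and 48.6 FPKM in the mutant, with a log2 fold change of 0.38 (SE 0.11, adjusted p = 0.0368 from limma). These 3 genes are long, at 4452, 3960 and 5853 bases. With the length and GC correction *UFD4* was 0.38 (adjusted p = 0.00554 from limma) and *SSM4* 0.26 (0.0233), and *UBR1* lost its call at 0.11 (0.253). With this correction and the replicate block together *SSM4* also lost its call (0.0544). *UBR1* was also lost with an equal total (0.27, adjusted p = 0.0868) and without any 1 sample except mutant replicate A (0.0112 without it, up to 0.125 without the others). Nor did *UBR1* pass without the trend of variance (0.0562) or with the block (0.0696). *HEL2*, which marks collided ribosomes, was 0.21 (adjusted p = 0.107), and *RKR1*, the ligase for chains stalled on the ribosome, was 0.21 (0.171). *SAN1* and *UBC6* were at 0.0020 and -0.0065.

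**Figure D5:**
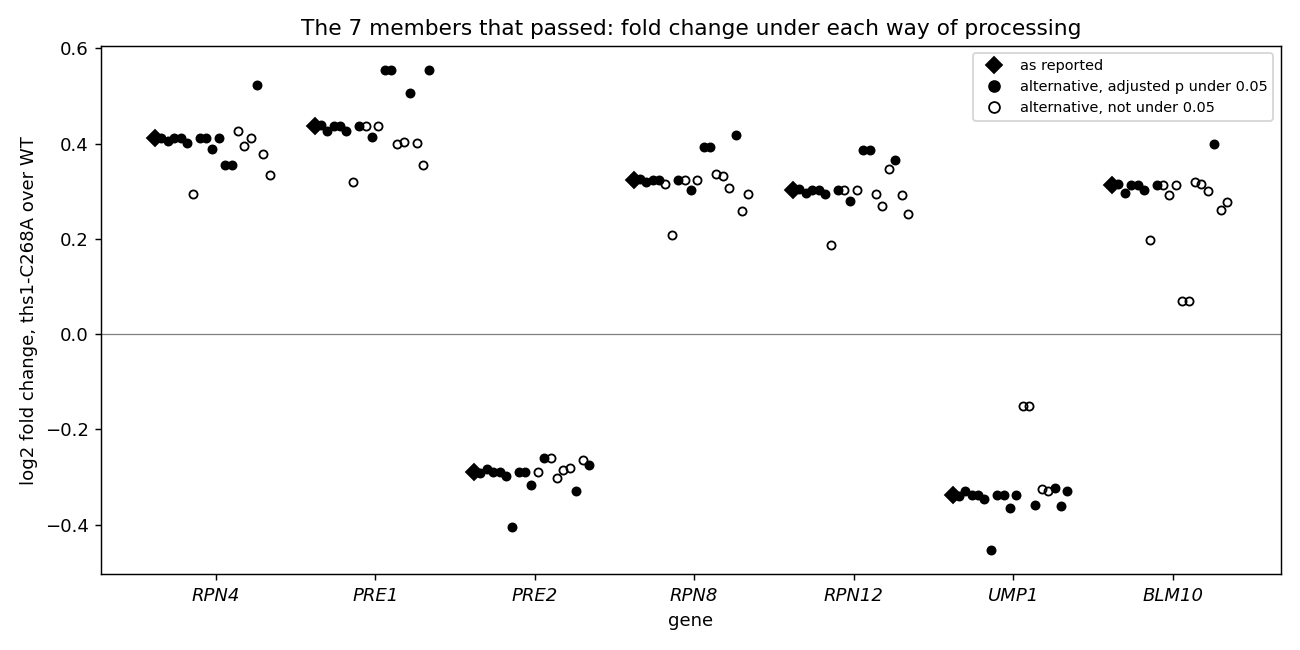
Log2 fold change of *ths1-C268A* over WT for the 7 genes that passed, with a diamond for the value as reported and a circle for each of the 19 alternatives, filled where the adjusted p was under 0.05 and open where it was not. No circle crosses 0, and the circles nearest to 0 are those of *BLM10* at 0.070 and *UMP1* at -0.15 with the length and GC correction.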

How the data were processed

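Compared were 3 WT and 3 *ths1-C268A* samples sequenced on Illumina machines at Novogene from Qiagen RNA. The authors deposited 1 table of FPKM values per gene with coding lengths, and the submitters' notes name HISAT2. How fragments were counted, and whether by strand, is not given in the sources used here. FPKM times length gave whole fragments, within 0.01, for 100% of the values above 0, and samples of the same strain differed by more than counting noise.

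Values were tested as log2(FPKM + 1) with limma 3.58.1 in R 4.3.3, with a trend of variance on mean, two-sided, with strain as the only term, over the 6447 genes whose mean was 1 FPKM or more. Fold changes on this scale understate those of low genes. The study names no test for these data. The 36 genes and the 7 lists were chosen with earlier results of these data known. Named in full were *RPN4*, genes that passed in each complex or else the highest and lowest, up to 3 genes that passed in each list or else the one with the smallest p, and *THS1*. Other genes were named after their values were seen. Promoters came from the RefSeq genome, build R64, where 36 of the 36 genes have the same coordinates, and *FUB1* and *HEL2* were named by locus tag. The 500 base window was added after seeing the data. Of the 19 alternatives, 2 changed the pseudocount (0.1 and 5), 2 the filter (none, and a mean of 10 FPKM), 2 the scaling (median ratio and equal total), 6 left out a sample, and the others used protein-coding genes only, no trend, limma-voom on the fragments, the replicate letters as a block, a loess correction (span 0.5) alone or with that block, and an adjusted p under 0.01. The main limma fit was tested on simulated fragments.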

Additional observations from a re-analysis of the deposited data

How the results depend on the processing

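Of the 36 genes, 5 rose and 2 fell as reported. With equal total scaling 0 rose and 6 fell, and their median log2 fold change was -0.022 instead of 0.094, while 8.13% of all genes rose and 19.9% fell. Without the trend 1 rose, *RPN4*, and 2 fell, while 713 of the 6447 genes rose and 653 fell. As reported, 916 of the 6447 rose and 783 fell. With the replicate block 1 rose, *RPN4*, and 1 fell, *UMP1*, while 683 of the 6447 genes rose and 593 fell. With the length and GC correction 8 rose and 1 fell, and with this correction and the replicate block together 0 fell. Over the 6176 protein-coding genes, 834 rose and 811 fell with the correction, and 764 and 691 with both. At an adjusted p under 0.01, 0 rose and 0 fell. Leaving out each sample in turn gave 0 to 9 that rose and 0 to 3 that fell. None rose without WT replicate A, WT replicate B or mutant replicate B, 1 rose without WT replicate C, 3 without mutant replicate C and 9 without mutant replicate A. The counts over the 6447 genes moved too. Without WT replicates A, B and C, 456, 356 and 414 rose and 394, 290 and 377 fell. Without mutant replicates A, B and C, 1088, 601 and 785 rose and 1057, 527 and 650 fell. Of the 49 related genes, 8 rose and 4 fell as reported. With an equal total 4 rose, the 4 that fell kept their calls, and *DDI1* and *RPN14* passed as lower too. With the replicate block 4 rose, and of the 4 that fell *RAD23* lost its call. At an adjusted p under 0.01, 4 rose and 2 fell, and 4 to 14 rose and 2 to 5 fell without 1 sample. No value that passed changed direction under any of the 19 alternatives. For the letters A, B and C, r of the deviations of same-letter samples was -0.23, 0.062 and -0.011. With 3 samples per strain, these values cannot show whether a letter marks a shared day or batch. They do not decide whether the replicate block is needed. The quasi-likelihood test on recovered fragments was not run. Why a call was lost was not tested.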
